A study of Mus musculus with 46 samples.

Results

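The genes described here are 9 transcripts known from the fetal liver or from liver tumours: Afp, Gpc3, Igf2bp3, Dlk1, Cd24a, Tff3, Alb, Lin28b and Hmga2. They were picked by symbol from the 55487 genes listed in each deposited file, and each symbol matched 1 gene. Their RNA was followed across 13 mouse liver libraries, 6 labelled control, 4 labelled Mfn DKO and 3 labelled Tfam KO. Tfam encodes a protein that packages and transcribes mitochondrial DNA, and Mfn1 and Mfn2 encode the mitofusins, which fuse the outer membranes of mitochondria. The descriptions of all 3 liver groups, control included, carry the letters AAV, which the labels do not write out. Strain, age, sex, the promoter used and the cell type in which the genes were removed are not given in the sources used here. The labels call the replicates biological, and the livers were flash frozen before RNA was isolated. Another 33 libraries of the series came from pancreatic islets and serve below only for the level of the same genes in another tissue.

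Before birth, hepatoblasts secrete α-fetoprotein (Afp) as a major serum protein. After birth the Afp gene is silenced while its neighbour Alb, which encodes albumin, stays among the most active genes of the hepatocyte. Liver regeneration and hepatocellular carcinoma can switch such genes on again, which is why they are called oncofetal. A second group belongs to the Lin28 and let-7 circuit: Lin28b blocks the maturation of let-7 microRNAs, and let-7 represses, among others, Hmga2, Igf2bp3 and Lin28b itself.

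Afp and Alb lie in tandem on mouse chromosome 5 in GRCm38, Alb at chr5:90460897-90476602 and Afp at chr5:90490737-90508907, both on the plus strand (GENCODE M21). Their promoters are shown because the results turn on the opposite behaviour of this pair in 1 library. The stretches are the 250 bases before the RefSeq start (GRCm38.p6, plus strand), chr5:90490464-90490713 for Afp and chr5:90460620-90460869 for Alb. Capitals mark GTTAAT, the first part of the palindrome bound by the liver factor HNF1.
Afp: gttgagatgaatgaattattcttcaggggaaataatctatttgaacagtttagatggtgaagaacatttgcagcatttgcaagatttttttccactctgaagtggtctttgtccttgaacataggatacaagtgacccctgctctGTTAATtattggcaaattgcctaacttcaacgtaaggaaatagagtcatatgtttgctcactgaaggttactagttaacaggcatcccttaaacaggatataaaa
Alb: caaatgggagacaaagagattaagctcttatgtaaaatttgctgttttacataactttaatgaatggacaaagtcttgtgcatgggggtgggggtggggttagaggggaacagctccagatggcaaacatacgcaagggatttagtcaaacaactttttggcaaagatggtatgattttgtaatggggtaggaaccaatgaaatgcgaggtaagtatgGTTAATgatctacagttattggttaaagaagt
On either strand, each of the 2 windows held GTTAAT 1 time, and 2113 of 32851 promoter windows of this length (6.43%) held it. Of the 9 genes, 7 were in the RefSeq promoter table, and the other 5 of them held no GTTAAT. The whole HNF1 palindrome was in 3 of the 32851 windows (0.00913%). The stress response elements TGATGCAA (0.792% of windows) and TGATGNAA (3.45%, which includes the former) were looked for as well. None of these 3 longer words was in any of the 7 windows.

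The let-7 circuit is shown by the mature microRNA and by the first match to its seed in the part after the coding sequence of 3 of the genes. In the microRNA (RefSeq, GRCm38.p6), capitals mark the seed, bases 2 to 8. In the sites, capitals mark CTACCTC, the complement of that seed. The sites are at chr10:120364224-120364245 (Hmga2), chr6:49086787-49086808 (Igf2bp3) and chr10:45381022-45381043 (Lin28b) in GRCm38, all on the minus strand.
mmu-let-7a-5p: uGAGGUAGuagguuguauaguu
Hmga2: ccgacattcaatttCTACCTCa
Igf2bp3: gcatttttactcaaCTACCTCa
Lin28b: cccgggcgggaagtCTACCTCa
In the longest coding transcript of each gene (GENCODE M21), Hmga2 had 4 matches, Lin28b 4 and Igf2bp3 1, and the other 6 genes had none. A match was present in 1847 of 19732 genes (9.36%). The level of let-7 itself was not measured by these libraries.

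The targeted genes were read first, since they check the labels. Levels are CPM, the usual depth-scaled counts, on TMM-scaled library sizes unless stated otherwise. Tfam was at 14.7 ± 1.42 CPM (SD, n = 3) in Tfam KO against 58.9 ± 4.02 (n = 6) in control. Mfn1 was at 20.2 ± 4.30 CPM in Mfn DKO (n = 4) against 80.8 ± 7.58 in control (n = 6), and Mfn2 at 38.1 ± 5.35 against 156.7 ± 28.4. Total counts ran from 41961114 to 56894510 per liver library. All 29 genes of a mature hepatocyte list had counts in every library. Their summed level ran from 75576 to 90748 CPM in control and from 65581 to 74005 in Mfn DKO, and it was 43850, 13879 and 64268 in Tfam KO replicates 1, 2 and 3.

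The library labelled Tfam KO replicate 2 stood apart from the other 12. The sources used here give no histology of any liver, so whether the sampled tissue of this one was like that of the others is not known, and its values are those of 1 liver. It held the highest level of all 13 libraries for 24.3% of the 17024 genes tested and the lowest for 24.8%, while no other library exceeded 11.4% and 9.71%. In it, 86 genes lay at least 8-fold above every other library, and 0 to 2 genes did so in each of the others. Afp ranked first among them. Its Tfam level, 13.1 CPM, lay beside the 15 and 15.9 of the other 2 Tfam KO libraries. Because this library decides many of the Tfam KO values, the changes of the 7 genes tested are given below with and without it.

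**Figure D1:**
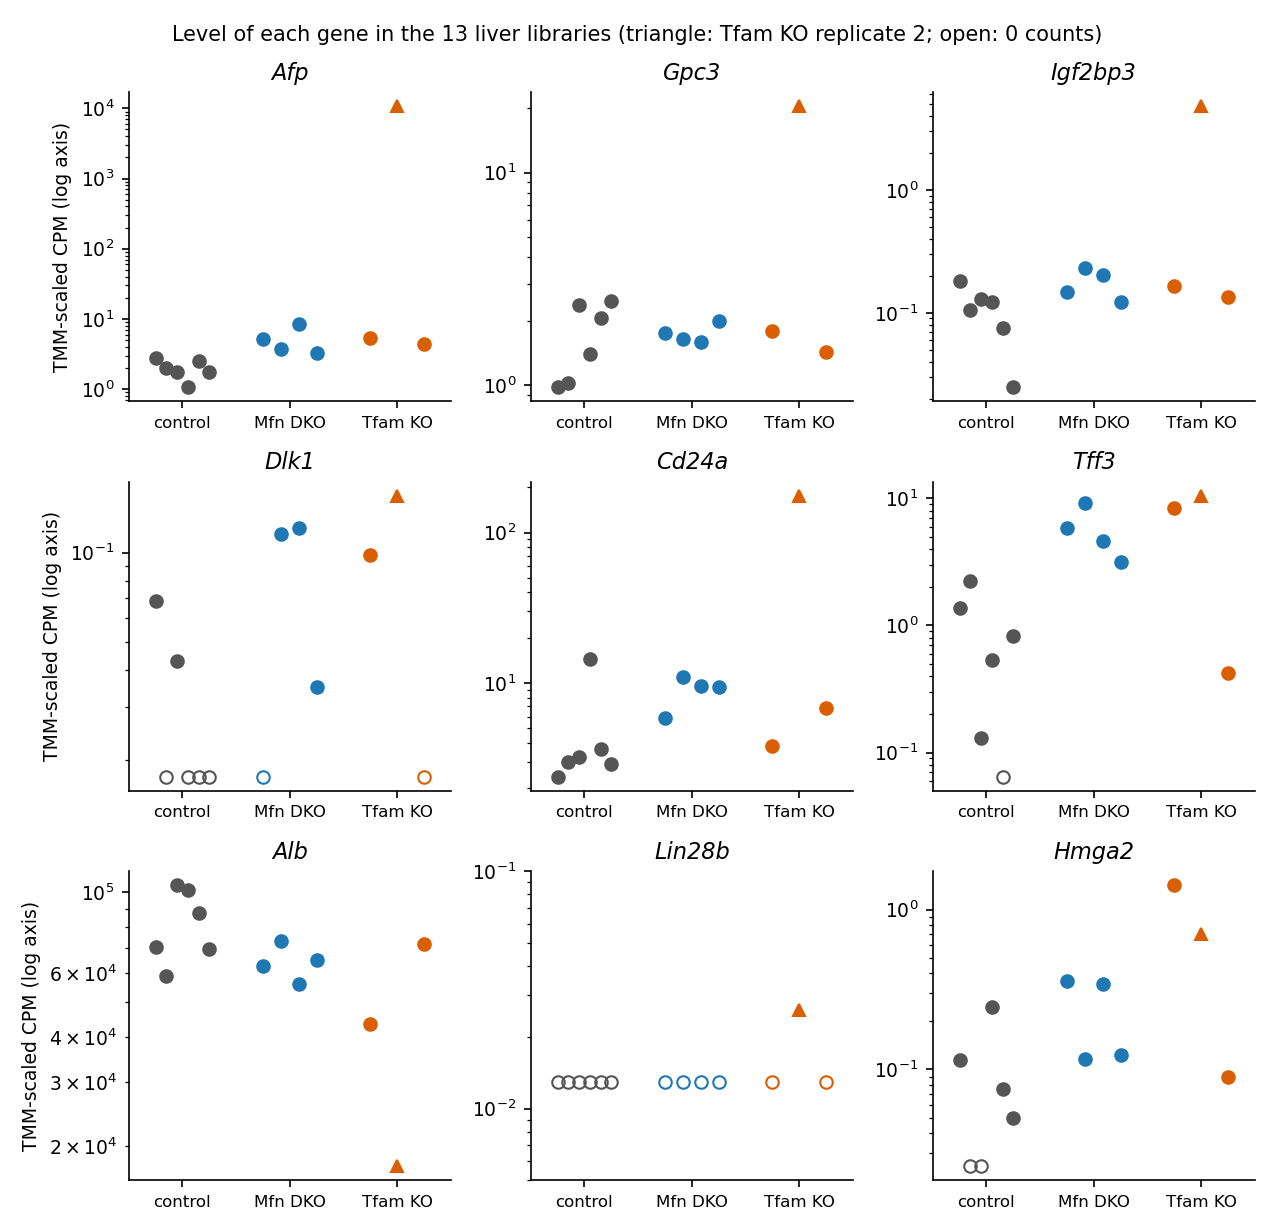
TMM-scaled CPM (log axis) of the 9 genes in each liver library, 1 panel per gene, with points grouped as control (n = 6), Mfn DKO (n = 4) and Tfam KO (n = 3). The triangle is Tfam KO replicate 2, and open points are libraries with 0 counts, drawn below the lowest value. Afp in the triangle is at 10783 CPM, while Afp in all other libraries is at or under 8.35 CPM.

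Afp, the fetal counterpart of albumin, was low but measurable in control livers, at 1.07 CPM in the lowest, 1.88 at the median and 2.81 in the highest library. In Mfn DKO it was at 5.23, 3.71, 8.35 and 3.22 CPM in replicates 1 to 4. In Tfam KO it was at 5.31, 10783 and 4.45 CPM. Every knockout library thus lay above every control library, and 1 of them lay 1291-fold above the next highest library. In that library Afp took 1.54% of all counts, from 830446 counts, against 52 to 131 counts in the controls.

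In the fit over all 13 libraries, Afp rose in Tfam KO against control with a log2 fold change of 10.83 ± 1.80 (SE, adjusted p = 0.00184). The change was 1.31 without Tfam KO replicate 2 and still passed (adjusted p = 0.0279), so the sign held while the size depended on that library. In Mfn DKO the log2 fold change was 1.38 ± 1.31, which did not pass (adjusted p = 0.521). The 3 groups share 1 estimate of the spread, and without Tfam KO replicate 2 the SE of that same change was 0.292 (log2 fold change 1.38, adjusted p = 0.0077). It also passed with only Mfn DKO and control in the fit (1.37, adjusted p = 0.00696). Groups that did not overlap, with Mfn DKO higher, were seen for Afp and Tff3 among the 9 genes and for 8.95% of all genes tested. With Tfam KO higher they were seen for Afp only, against 10.7% of all genes.

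Alb ran the other way in Tfam KO replicate 2. It was at 58854, 78967 and 104525 CPM in the lowest, median and highest control, at 62796, 73230, 55985 and 64943 in Mfn DKO, and at 43469, 17648 and 71777 in Tfam KO. The knockout groups overlapped the controls, and the lowest of the other 12 libraries was 2.46-fold above Tfam KO replicate 2. Within control, Alb split with Xist, whose levels are given below with Gpc3. Control replicates 3, 4 and 5, with high Xist, were at 104525, 101623 and 87416 CPM. Replicates 1, 2 and 6, with low Xist, were at 70518, 58854 and 69610 CPM. Among libraries of like Xist level, every Tfam KO library lay below every control. Mfn DKO replicates 2, 3 and 4 did so too, but not replicate 1. The log2 fold change was -0.35 ± 0.38 in Mfn DKO (adjusted p = 0.574) and -0.89 ± 0.43 in Tfam KO (adjusted p = 0.135), and neither passed. The latter was -0.51 without Tfam KO replicate 2 (adjusted p = 0.203). Without Tfam KO replicate 3 the change in Tfam KO was -1.44 and passed (adjusted p = 0.0136), as did the Wald test of DESeq2 on all libraries (-0.90, adjusted p = 0.0224).

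The ratio of Afp to Alb counts does not depend on the scaling, while a share of all counts is scaled on its library's total. Alb took 5.31% to 9.44% of counts in control, 5.82% to 7.59% in Mfn DKO, and 5.06%, 2.52% and 7.43% in Tfam KO. The ratio of Afp counts to Alb counts ran from 1.05e-05 to 3.98e-05 in control and from 4.96e-05 to 0.000149 in Mfn DKO. It was 0.000122 and 6.2e-05 in Tfam KO replicates 1 and 3 and 0.611 in replicate 2. All 7 knockout libraries lay above all 6 controls on this ratio. On the length-corrected deposited TPM scale, which allows genes to be compared, Afp was at 13323 and Alb at 31357 in Tfam KO replicate 2. There Afp ranked 5 and Alb 2 among all genes, while in the other 12 libraries Alb ranked 1 and Afp between 7700 and 13485.

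**Figure D2:**
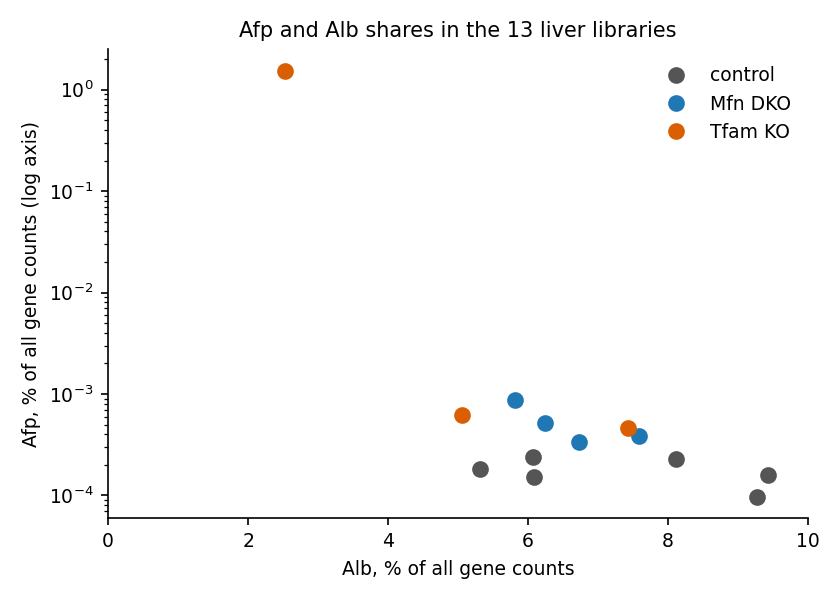
Share of all gene counts taken by Alb (x axis, %) and by Afp (y axis, %, log axis) in each of the 13 liver libraries, coloured by group. The point at the upper left is Tfam KO replicate 2, with 2.52% Alb and 1.54% Afp, and the other 6 knockout points lie above the 6 control points on the Afp axis.

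The other genes of the albumin cluster did not pass a test. Gc, the vitamin D binding protein, had log2 fold changes of -0.16 ± 0.25 in Mfn DKO (adjusted p = 0.705) and -0.60 ± 0.28 in Tfam KO (adjusted p = 0.12). Afm, which encodes afamin and lies beyond Afp, had -0.16 ± 0.33 (adjusted p = 0.785) and -0.29 ± 0.36 (adjusted p = 0.572). Both were lowest in Tfam KO replicate 2, Gc at 2490 CPM against 5861 or more elsewhere and Afm at 96.0 against 266.2 or more. Of these 4 neighbours, Afp alone was high in that library.

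Gpc3 encodes a glypican, a heparan sulfate proteoglycan anchored at the cell surface that is shed by many hepatocellular carcinomas. It was at 0.981, 1.73 and 2.48 CPM in the lowest, median and highest control and at 1.76, 1.64, 1.59 and 2.0 in Mfn DKO. In Tfam KO it was at 1.80, 20.5 and 1.43 CPM. All libraries other than Tfam KO replicate 2 overlapped, and that one lay 8.26-fold above the next. The log2 fold change was 0.02 ± 0.62 in Mfn DKO (adjusted p = 0.988) and 2.20 ± 0.64 in Tfam KO (adjusted p = 0.022). The latter was -0.09 without Tfam KO replicate 2 (adjusted p = 0.899), and it did not pass with the level of Xist as a covariate (1.92, adjusted p = 0.0536) or with the 2 groups alone (adjusted p = 0.06). Gpc3 lies on the X chromosome. Xist was at 380.3 to 787.8 CPM in 7 livers, from all 3 groups, and at 0.0847 to 0.705 CPM in the other 6. The 7 were control replicates 3, 4 and 5, Mfn DKO replicates 2 and 4, and Tfam KO replicates 2 and 3.

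Cd24a encodes a small mucin-like protein on the surface of progenitors, bile duct cells and leukocytes. It was at 2.40, 3.13 and 14.5 CPM in the lowest, median and highest control, at 5.87, 11, 9.60 and 9.40 in Mfn DKO, and at 3.85, 176.1 and 6.80 in Tfam KO. Tfam KO replicate 2 was 12.1-fold above the next library, which was control replicate 4. That control also held the highest levels of Krt19 (21.4 CPM) and Muc1 (9.31 CPM), markers of bile duct epithelium, against 0.89 to 2.08 and 0.345 to 1.07 CPM in the other 5 controls. Their part in the result was not tested. The change in Mfn DKO was 0.85 ± 0.85 (adjusted p = 0.54), and that in Tfam KO 3.65 ± 0.92 (adjusted p = 0.0116). The latter was 0.10 without Tfam KO replicate 2 and did not pass (adjusted p = 0.936). Cd24a has processed copies elsewhere in the mouse genome, so its count depends on how reads shared with them were assigned.

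Tff3, a trefoil peptide that goblet cells secrete to protect mucosal surfaces, followed another pattern. Control livers ran from 0 to 2.24 CPM with a median of 0.677, Mfn DKO livers were at 5.89, 9.20, 4.64 and 3.15, and Tfam KO livers at 8.45, 10.5 and 0.425. All 4 Mfn DKO libraries and 2 of 3 Tfam KO libraries lay above every control, while Tfam KO replicate 3 lay among the controls. The log2 fold change was 2.77 ± 0.91 in Mfn DKO (adjusted p = 0.0705) and 2.95 ± 0.95 in Tfam KO (adjusted p = 0.0343). The first passed without Tfam KO replicate 2 (adjusted p = 0.0437), without Tfam KO replicate 3 (adjusted p = 0.0265), with Xist as a covariate (adjusted p = 0.0374) and with the 2 groups alone (adjusted p = 0.0197). The second did not pass without control replicate 3, 4 or 6, nor without Tfam KO replicate 1 or 2, with adjusted p values between 0.0574 and 0.128, nor with the 2 groups alone (adjusted p = 0.0824). It was 2.42 without Tfam KO replicate 2. Its paralogs Tff1 and Tff2 did not pass in either comparison.

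The let-7 circuit genes were near the limit of detection. Lin28b had 0 counts in 12 of the 13 libraries and 2 counts in Tfam KO replicate 2, which is below the 3 counts that an observed 0 allows. No fold is given for it, and it did not enter the test. Its paralog Lin28a did not enter the test either.

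Igf2bp3, an RNA-binding protein of fetal tissues that stabilizes growth-related messages, had 1 to 8 counts per control library and reached 10 counts in 4 libraries only, all of them knockouts. It was at 0.0248, 0.114 and 0.183 CPM in the lowest, median and highest control and at 0.148, 0.232, 0.202 and 0.123 in Mfn DKO. In Tfam KO it was at 0.164, 4.82 and 0.134 CPM. The single high library lay 20.8-fold above the next. The log2 fold change was 0.70 ± 0.92 in Mfn DKO (adjusted p = 0.652) and 3.97 ± 0.89 in Tfam KO (adjusted p = 0.00688), and the latter was 0.47 without Tfam KO replicate 2 (adjusted p = 0.614). Of 7 paralogs tested, 2 rose in Tfam KO, Igf2bp2 (1.72 ± 0.51, adjusted p = 0.0247) and the glypican Gpc6 (1.69 ± 0.43, adjusted p = 0.0124). Neither passed without that library (0.96, adjusted p = 0.235, and 0.75, adjusted p = 0.186). The count of 2 of 7 is to be read beside the 18.1% of all genes called higher in Tfam KO in the fit over 13 libraries.

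Hmga2, a chromatin protein of proliferating embryonic cells, was the member whose highest library was not Tfam KO replicate 2, Alb aside. It ran from 0 to 0.247 CPM in control (median 0.0627), was at 0.36, 0.116, 0.343 and 0.123 in Mfn DKO, and at 1.43, 0.701 and 0.0894 in Tfam KO. Tfam KO replicate 1, with 87 counts, and replicate 2, with 54, lay above all other libraries, and replicate 3, with 4 counts, lay inside the controls. The log2 fold change was 1.46 ± 0.87 in Mfn DKO (adjusted p = 0.295) and 3.12 ± 0.87 in Tfam KO (adjusted p = 0.0184). The latter still passed without Tfam KO replicate 2 (3.17, adjusted p = 0.0444), but without replicate 1 it did not (2.25, adjusted p = 0.112). Hmga1, its paralog, had 0.45 ± 0.20 in Tfam KO (adjusted p = 0.101, and 0.299 without replicate 2).

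Dlk1, a hepatoblast surface protein of the Notch ligand family, was not detectable as changed at this depth. It had 0 to 3 counts in control, 0 to 6 in Mfn DKO and 6, 12 and 0 in Tfam KO replicates 1, 2 and 3, and 6 of the 13 libraries were at 0. It failed the filter on low counts. In the fit with no filter the log2 fold changes were 1.74 ± 1.18 in Mfn DKO (adjusted p = 0.463) and 2.09 ± 1.22 in Tfam KO (adjusted p = 0.302).

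Of the 9 genes, 7 passed the filter on low counts. Against control, 0 of these 7 passed the test in Mfn DKO (edgeR, adjusted p of 0.05 or less), where 9.87% of all genes did, and 1 of the 7, Tff3, had an unadjusted p under 0.05. The Wald test of DESeq2 called none either, but gave an adjusted p for only 3 of them (Tff3, Alb and Hmga2). In Tfam KO, 6 of the 7 rose and 0 fell, where 29.3% of all genes changed, 3073 higher (18.1%) and 1919 lower. Igf2bp3, among the 6, had 10 counts in 0 of 6 controls and passed the filter only through knockout libraries. A fall could hardly have been called for it, and with only Tfam KO and control in the fit it did not pass the filter. Hmga2 had 10 counts in 1 of 6 controls. Of Tff3, Alb and Hmga2, the 3 with an adjusted p, DESeq2 called Tff3 and Hmga2 higher and Alb lower in Tfam KO. With only Tfam KO and control in the fit 3 of 6 rose (Afp, Cd24a and Hmga2), and among the 4 genes with at least 10 counts in every library 3 did (Afp, Gpc3 and Cd24a). When Tfam KO replicate 2 was left out, these counts were 2 of 7 in each comparison, Afp and Tff3 in Mfn DKO (background 19.5%) and Afp and Hmga2 in Tfam KO (background 14.5%). Scaling on total library size instead of TMM split all calls in Tfam KO into 7250 higher and 904 lower, and those in Mfn DKO into 1653 and 356 instead of 891 and 790. It kept the counts of members at 6 and 0. It put the median of all genes at 0.457 in Tfam KO and 0.211 in Mfn DKO (log2), against 0.031 and 0.018 with TMM.

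The 2 knockouts share their control libraries, so they were compared directly. Between Tfam KO and Mfn DKO 0 of the 7 genes passed (background 0.294%), with 4 at an unadjusted p under 0.05 (edgeR). DESeq2 gave an adjusted p for Tff3 and Alb only and called neither. With Tfam KO replicate 2 left out the count was 0 as well (background 0.283%). The largest difference was that of Afp, with a log2 fold change of 9.45 ± 2.07 (adjusted p = 0.0788). It passed on total library size (adjusted p = 0.0454), with no filter (adjusted p = 0.0465) and without Tfam KO replicate 1 (adjusted p = 0.0339), and was -0.07 ± 0.39 without Tfam KO replicate 2 (adjusted p = 0.968). In the same way Gpc3 went from 2.18 to -0.11, Igf2bp3 from 3.27 to -0.23 and Cd24a from 2.80 to -0.75. Without Tfam KO replicate 3, in contrast, these 4 genes passed, with adjusted p values from 0.00172 to 0.0275. Hmga2 (1.66 ± 0.91, adjusted p = 0.315), Tff3 (0.18 ± 1.03, adjusted p = 0.935) and Alb (-0.54 ± 0.45, adjusted p = 0.511) did not pass, nor without Tfam KO replicate 2 (1.71, -0.35 and -0.16).

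**Figure D3:**
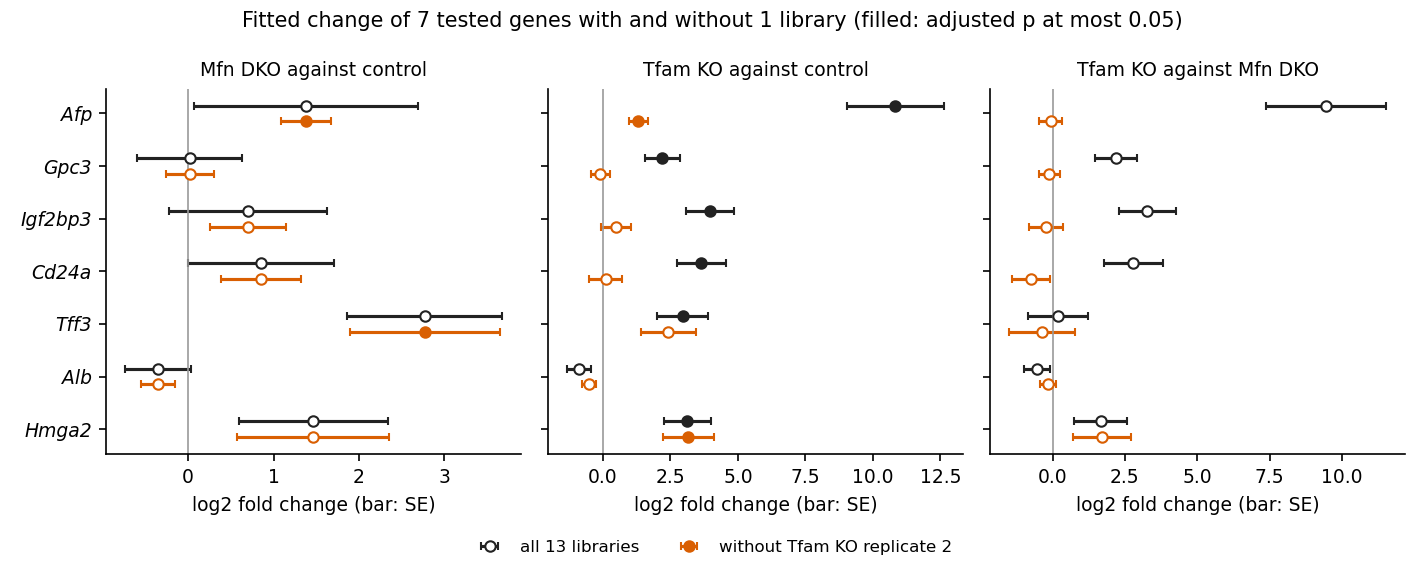
Log2 fold change (x axis, bars are the SE) of the 7 tested genes in the 3 comparisons, fitted over all 13 libraries (black) and without Tfam KO replicate 2 (orange), with filled points at an adjusted p of at most 0.05. Black and orange points coincide for Mfn DKO against control, and in the other 2 panels those of Afp, Gpc3, Igf2bp3 and Cd24a lie apart, for example 10.83 and 1.31 for Afp.

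Factors known to control Afp and Alb were read next, from a list of 20 genes that were all tested. In Mfn DKO 2 fell and 0 rose (median log2 fold change -0.20, all genes 0.018), and in Tfam KO 7 fell and 1 rose (median -0.37, all genes 0.031). With Tfam KO replicate 2 left out, 4 fell and 0 rose in each comparison (Foxa1, Foxa2, Cebpa and Nr2f2). For this list and those below, the share of all genes called was 9.87% in Mfn DKO and 29.3% in Tfam KO. Without Tfam KO replicate 2 it was 19.5% and 14.5%. Foxa1 and Foxa2, pioneer factors that open liver enhancers, fell in both: Foxa1 by 0.75 on the log2 scale in Mfn DKO (adjusted p = 0.0183) and by 0.86 in Tfam KO (adjusted p = 0.00674), and Foxa2 by 0.86 (adjusted p = 0.0236) and 1.14 (adjusted p = 0.0047). In Tfam KO Nr2f2 (-0.94 ± 0.16, adjusted p = 0.00193), Zbtb20 (-1.09 ± 0.28, adjusted p = 0.0135), Prox1, Cebpa and Nr5a2 fell too, and Trp53 rose (0.65 ± 0.17, adjusted p = 0.0148). Without replicate 2, Prox1 (-0.84, adjusted p = 0.0772), Nr5a2 (-0.36, adjusted p = 0.14) and Trp53 (0.42, adjusted p = 0.112) did not pass.

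Zbtb20, Zhx2 and Zfhx3 are the factors best known as repressors of Afp after birth. Zbtb20 was at 145.3 to 292.8 CPM in control, at 198.3, 129.9, 189.1 and 112.8 in Mfn DKO, and at 109.9, 68.5 and 115.0 in Tfam KO. Its change in Mfn DKO was -0.40 ± 0.25 and did not pass (adjusted p = 0.3135). Its change in Tfam KO was -0.89 without Tfam KO replicate 2 and did not pass (adjusted p = 0.0672). Zhx2 was at 21.5 to 28 CPM in control and at 30.9, 21 and 20.3 in Tfam KO (log2 fold change -0.03 ± 0.14, adjusted p = 0.89), and Zfhx3 had -0.04 ± 0.14 (adjusted p = 0.847). In Tfam KO replicate 2, where Afp was at 10783 CPM, Zhx2 was just below its range in control. Cebpa, an activator of hepatocyte genes, was at 372.6 and 379.5 CPM in Tfam KO replicates 1 and 3 and at 63.6 in replicate 2, against 553.1 to 749.3 in control.

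Other genes known from fetal liver, taken from a list of 20, gave 3 that rose among 15 tested in Mfn DKO and 5 in Tfam KO, and none fell. With Tfam KO replicate 2 left out, 6 rose and 1 fell in Mfn DKO and 1 rose, Spink1, in Tfam KO. Of all genes, 9.87% were called in Mfn DKO and 29.3% in Tfam KO, or 19.5% and 14.5% without that library. H19, an imprinted noncoding RNA that is abundant in fetal liver, was at 52.6, 298.7, 54.5 and 136.6 CPM in Mfn DKO against 0.211 to 7.09 in control (log2 fold change 5.46 ± 1.26, adjusted p = 0.0193). In Tfam KO it was at 0.688, 143.7 and 9.41 CPM, and its change of 4.06 ± 1.24 (adjusted p = 0.0277) was 0.70 without replicate 2 (adjusted p = 0.728). Within control, H19 split with Xist. It was at 3.95 to 7.09 CPM in replicates 3, 4 and 5, with high Xist, and at 0.211 to 0.596 in replicates 1, 2 and 6. Tfam KO replicate 1, with low Xist, is to be read beside the latter. Spink1, a secreted trypsin inhibitor, rose in Mfn DKO (6.15 ± 0.72, adjusted p = 0.000498) and in Tfam KO (4.11 ± 0.73, adjusted p = 0.00244, and 2.91 without replicate 2, adjusted p = 0.0139). Scd2, a fatty acid desaturase, rose in Mfn DKO (1.63 ± 0.27, adjusted p = 0.00333). Peg3, an imprinted zinc finger gene, was at 472.4 CPM in Tfam KO replicate 2 and at most 10.8 CPM in the other 12 libraries (log2 fold change 4.60, and -0.68 without replicate 2), and Cpm, a carboxypeptidase of the cell surface, was at 18.2 against at most 9.38 (1.43, and 0.60 without replicate 2). Neither passed without it.

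Of the 17 tested genes of the let-7 pathway list, 2 rose in Mfn DKO and 6 rose and 1 fell in Tfam KO, or 3 and 0 without Tfam KO replicate 2. Tut4, which adds uridines to let-7 precursors together with Lin28, rose by 0.57 ± 0.14 in Mfn DKO (adjusted p = 0.0226) and by 0.81 ± 0.15 in Tfam KO (adjusted p = 0.00272, and 0.0161 without replicate 2). The list of partners of glypicans and of Notch signalling gave 0 of 17 in Mfn DKO (edgeR, 1 at an unadjusted p under 0.05). It gave 4 rising and 1 falling in Tfam KO, among them Igf2r, Jag1 and Wnt2, the last of which fell. The share of all genes called was 9.87% in Mfn DKO and 29.3% in Tfam KO, and the calls of both lists in Tfam KO are to be read beside it. In the fit without Tfam KO replicate 2, Cxcr4 alone rose in Tfam KO (1.37, adjusted p = 0.0199), and 1 rose and 1 fell in Mfn DKO.

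Levels of genes that mark other states of the liver moved beside these values. In Tfam KO 10 of 29 mature hepatocyte genes fell and 0 rose (median -1.15), led by Tdo2, Ttr and Arg1, and 12 fell and 1 rose without replicate 2 (median -0.78). In Mfn DKO 1 rose, Tat (1.33 ± 0.34, adjusted p = 0.0284), and 0 fell (median -0.38), but 3 rose and 9 fell without Tfam KO replicate 2. Of all genes, 29.3% were called in Tfam KO and 9.87% in Mfn DKO, or 14.5% and 19.5% without that library. Tfam KO replicate 2 was the lowest of all 13 libraries for 27 of the 29, among them Cyp2e1, at 234.9 CPM against 7619 to 12038 in control. As these are bulk samples, fewer hepatocytes and less RNA per hepatocyte cannot be told apart.

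**Figure D4:**
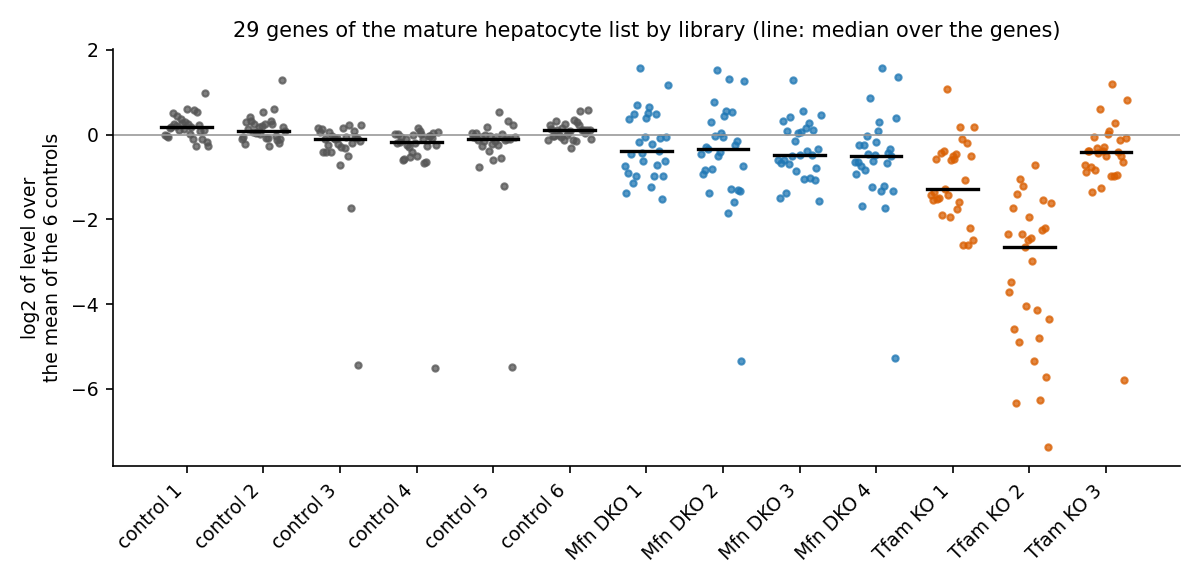
Log2 ratio of each of 29 mature hepatocyte genes to its mean over the 6 controls (y axis), by library (x axis), with a line at the median over the genes. The median is -2.66 in Tfam KO replicate 2, -1.29 and -0.40 in replicates 1 and 3, and between -0.50 and -0.34 in Mfn DKO. The single point far below the rest in 3 controls, 2 Mfn DKO and 1 Tfam KO library is Mup20. Xist was high in each of these libraries and in Tfam KO replicate 2, where Mup20 was at 12.8 CPM, and low in all others.

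Among 19 tested cholangiocyte and progenitor markers, 1 rose in Mfn DKO, Krt23 (2.38 ± 0.47, adjusted p = 0.00986), and 4 rose in Tfam KO, Krt23 (2.90 ± 0.50, adjusted p = 0.00218), Ggt1, Sox4 and Cldn4. Of these 4, Krt23 alone passed without Tfam KO replicate 2, while 4 of the list then rose in Mfn DKO. Among all genes, 18.1% were called higher in Tfam KO in the fit over 13 libraries. The summed level of the list's 20 genes was 210.9 to 289.5 CPM in control, 263.1 to 332.8 in Mfn DKO and 238.0, 524.3 and 267.4 in Tfam KO. Tfam KO replicate 2 was the highest of all 13 libraries for 9 of the 20, among them Sox4 (159.3 CPM against at most 9.31 elsewhere), Krt23 and Sox9. Krt19 was at 16.2 CPM there, against 0.89 to 2.08 in 5 controls and 21.4 in control replicate 4. Krt7 and Epcam, at 1.32 and 3.47 CPM, were inside the range of the controls (0.684 to 2.55 and 1.64 to 4.11). Their part in the results for Afp, Gpc3, Cd24a and Igf2bp3 was not tested.

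Proliferation genes rose in both knockouts, 13 of 14 in Mfn DKO (median 2.03) and 9 of 14 in Tfam KO (median 1.25, and 4 without replicate 2). Mki67 rose by 2.32 ± 0.27 (adjusted p = 0.000448) and 1.44 ± 0.29 (adjusted p = 0.00394, and 0.0174 without replicate 2). Their summed level was 45.7 to 73.0 CPM in control, 103.0 to 180.8 in Mfn DKO and 82.0 to 92.3 in Tfam KO, replicate 2 included. Of 20 genes of the integrated stress response, 14 rose in Mfn DKO and 17 in Tfam KO, or 15 without replicate 2, led by Trib3 and Nupr1.

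Markers of blood and support cells gave few calls in the fit over 13 libraries. In Mfn DKO 1 of 10 Kupffer cell and 2 of 10 stellate cell markers rose. Without Tfam KO replicate 2 these counts were 1 and 4 of 10 in Mfn DKO, where 19.5% of all genes were called. In Tfam KO 1 Kupffer cell, 2 neutrophil, 1 stellate and 1 endothelial marker rose, and 1 lymphocyte and 1 stellate marker fell. With replicate 2 left out, 2 stellate markers rose, Col1a1 and Lum, and no other marker of these lists was called in Tfam KO. Marco, of the Kupffer cell list, rose in Mfn DKO (2.6 ± 0.36, adjusted p = 0.00144) and in Tfam KO (1.43 ± 0.38, adjusted p = 0.0154), the latter not without Tfam KO replicate 2 (adjusted p = 0.0544). In Tfam KO replicate 2 the 10 B and T cell markers summed to 2.71 CPM against 15.6 to 19.6 in control, the 10 Kupffer cell markers to 332.3 against 537.4 to 1001, and the 10 neutrophil markers to 32.7 against 4.13 to 15.4. The last 2 sums split with Xist within control. In control replicates 3, 4 and 5, with high Xist like Tfam KO replicate 2, they were at 829.2 to 1001 and at 10.1 to 15.4 CPM. Tfam KO replicate 2 was the lowest of the 13 for all 10 B and T cell markers and for 9 of the 10 Kupffer cell markers, and the highest for 7 of the 10 neutrophil markers. Their part in the results was not tested. The erythroid sum in that library, 261.3 CPM, was inside the control range, and the stellate sum, 280.5 CPM, was below it (290.4 to 375.0). The endothelial sum, 420.2 CPM, was inside the control range with Lyve1 at 87.4 CPM against 7.74 to 14.5 in control, while 3 of the 10 endothelial markers, Clec4g, Kdr and Tek, were at their lowest of all 13 libraries.

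The genes whose levels ran most like those of each member over the 13 livers are given as a description, since all points share Tfam KO replicate 2. For Afp they were Nipsnap2 (r = 0.97), Map9 (0.97) and Slc25a24 (0.96), on log2 CPM. Without that library r was 0.70, 0.86 and 0.48. For Igf2bp3 they were Sox4, Nipsnap2 and Ldhb (0.97 each, and 0.75 to 0.76 over 12 libraries), and for Gpc3 Gdpd1, Actg1 and Syde1 (0.95 to 0.96, and 0.54 to 0.74). Cd24a ran with Epn3 (0.98, and 0.95 over 12), St14 (0.98 and 0.92) and Golm1 (0.97 and 0.92). Tff3 ran with Olfm2 (0.96 and 0.95), Chrm3 (0.94 and 0.93) and AC169509.1 (0.94 and 0.93), and Hmga2 with Gtf3a (0.92 and 0.91), Cep295 (0.91 and 0.90) and Tdrd3 (0.91 and 0.90). Alb ran with Cpn1, a subunit of a plasma carboxypeptidase (0.98 and 0.94), Maob (0.97 and 0.90) and H2-T23 (0.97 and 0.90). The likeness for Afp, Gpc3 and Igf2bp3 thus rested more on the 1 library than that for Cd24a, Tff3, Hmga2 and Alb. Between members, Afp and Gpc3 had r = 0.90 over 13 libraries and -0.04 over 12.

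In the 33 islet libraries, described on the deposited CPM scale, Afp was at 0 counts in 21 and reached 0.171 CPM at most. Alb ran from 0.468 to 2.18 CPM, Cd24a from 48.0 to 99.5 CPM, Gpc3 from 0.428 to 2.17 CPM and Dlk1 from 0.733 to 15.3 CPM. Lin28b was at 0 counts in 23 and Hmga2 in 30 of the 33. Dlk1 was higher in every islet library of Tfam KO females (n = 4) than in every control female (n = 5), a gap that 21.9% of all genes showed. In males (2 against 3) 5 of the 9 genes, Gpc3, Dlk1, Cd24a, Tff3 and Alb, lay above every control, as did 41.2% of all genes.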

How the data were processed

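RNA was measured by paired-end sequencing of total RNA. Each deposited file lists raw counts, TPM and CPM per gene, per the file headers. Tests started from the deposited counts, unaltered. The deposited CPM is each count over its library's total and was used for islets. The authors' TPM was used only to set levels of different genes side by side. Per the submitters' processing notes, STAR 2.6.1b, RSEM 1.3.1, featureCounts and DESeq2 were among the tools and GRCm38 the build; which of them made the counts is not given in the sources used here.

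All 13 liver libraries entered 1 fit with 1 mean per group in edgeR 4.0.16 under R 4.3.3 (TMM, filterByExpr with a minimum count of 10, quasi-likelihood F-test, Benjamini-Hochberg adjustment over 17024 genes, calls at 0.05). The SE is the log2 fold change over the square root of F. Correlations used log2 CPM with a prior count of 2. The floor is 3 counts and, like the reads, covers counting error only. Positions and transcripts come from GENCODE M21, promoters and the microRNA from RefSeq tables. Alternatives were other scalings, filters, DESeq2 1.42.0, each library left out, a replicate block, Xist as covariate and fits of 2 groups. Among the 13 liver libraries, no library's counts were identical to another's. The islet libraries were not compared in this way.

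The members and lists were chosen with earlier results of these data known, so they are not independent evidence. Genes named are the members, the targeted genes, at most the 3 genes with the smallest adjusted p per list and comparison, any gene of the lists of Afp regulators, the albumin cluster and paralogs, and the 3 genes most like each member. Not every gene that this rule allows is reported here. Krt19, Krt7, Epcam, Muc1, Cyp2e1, Cldn4, Mup20, Cxcr4, Sox9, Kdr, Tek and Lum were named after their values were seen. On data simulated from these libraries, the fit recovered 43.9% of genes changed 2-fold in Mfn DKO and 35.7% in Tfam KO, of 98 each among 16377 tested. Each simulated library was drawn around the control mean, with no library that stood apart, so these shares may not hold for the data.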

Additional observations from a re-analysis of the deposited data

Results flagged for a closer look

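Cd24a in control replicate 4, at 14.5 CPM, lay far from the other 5 controls (2.40 to 3.67 CPM). The gap to the nearest control was above the limit of Dixon's test at 95%, in 1 of 16 sets of values tested, and chance passes about 1 in 20. Without control replicate 4 the log2 fold change of Cd24a in Mfn DKO was 1.55 instead of 0.85 and did not pass either (adjusted p = 0.25).

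The islet libraries were outside the comparisons, and 6 results stood above their controls there. Dlk1 was higher in every Tfam KO islet library than in every control of the same sex. In females the lowest KO library was at 7.03 CPM and the highest of 5 controls at 6.76, and 21.9% of all genes with counts showed such a gap. In males the lowest of 2 KO libraries was at 4.30 CPM and the highest of 3 controls at 2.49. In the same males the lowest KO library lay above every control for Gpc3 (1.33 CPM), Cd24a (69.5 CPM), Tff3 (0.168 CPM) and Alb (1.24 CPM), as did 41.2% of all genes. None of these islet values was tested.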

How the results depend on the processing

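Among refits of single members, 364 kept their direction and their side of the threshold, 13 changed sign, 17 no longer passed and 16 newly passed. For Mfn DKO against control the count of members called was 1 with Xist as covariate and 2 with 2 groups in the fit, and all calls numbered 169 with the replicate block, 4338 with 2 groups and 2870 with DESeq2. For Tfam KO against control 3 members were called with at least 10 counts in every library and 3 with 2 groups. DESeq2 called 3, Tff3 and Hmga2 higher and Alb lower, the only members to which it gave an adjusted p. With the replicate block 0 were called (Afp 6.40, adjusted p = 0.29). All calls were 8154 on library size, 3228 with 2 groups and 395 with the block. The block treats livers of the same replicate number as related, which the labels do not state. For Tfam KO against Mfn DKO 2 members were called on library size and 1 without a filter, and all calls were 1226 on library size, 27 with at least 10 counts, 6 with the block, 7 with 2 groups and 1087 with DESeq2.

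Leaving out 1 library at a time, members called ran from 0 to 2, 2 to 7 and 0 to 4 in these 3 comparisons, and all calls from 686 to 3379, 2504 to 7330 and 24 to 4204. In Tfam KO against control, 2 members were called without Tfam KO replicate 2, 4 without replicate 1 and 7 without replicate 3. Log2 fold changes that changed sign ran from -0.11 to 0.15 for Gpc3 in Mfn DKO and from -0.0895 to 2.67 in Tfam KO. Between the knockouts they ran from -0.0686 to 10.04 for Afp, -0.11 to 2.67 for Gpc3, -0.23 to 3.81 for Igf2bp3, -0.75 to 3.35 for Cd24a and -0.35 to 0.73 for Tff3. With the replicate block Tff3 was -0.80 there. Apart from fits with fewer libraries or genes, the cause was not tested.

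Over 10 pairs of libraries with the same replicate number, residual profiles correlated with a median of 0.0875 (-0.343 to 0.35), 5 over 0.1. Pairs of like Xist level ran from 0.0571 to 0.35, and pairs of unlike level from -0.343 to -0.033. Libraries of different numbers were not compared, so whether the same number marks a pair cannot be told. DESeq2 gave no adjusted p for Afp, Gpc3, Igf2bp3 and Cd24a in any comparison, nor for Hmga2 between the knockouts. With 3 Tfam KO libraries, of which 1 stood apart, values of that group are the least certain, and Dlk1, Lin28b, Igf2bp3 and Hmga2 are limited by depth.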
